A study of Mus musculus with 305 samples.

Results

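Hormone genes of the hypothalamus and the pituitary were measured in bulk RNA-seq libraries from 6 brain regions of male mice. The set holds 7 of the 52636 genes in the count table: Gh, Prl, Trh, Oxt, Avp, Pmch and Hcrt. They were taken by Ensembl identifier and given as counts-per-million (CPM), a gene's reads divided by all counted reads of its library. Gh was picked because its levels agreed between the regions of a mouse, and Trh because of an extreme value in 1 library of the VTA, so those values are given below as a description without a test.

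The study asks which transcripts follow heroin intake and relapse in the brain's reward circuitry. All 51 mice were wild-type and had an intravenous line through which they took heroin or saline for 15 d. The mouse is the replicate in the treatment comparisons. The main comparisons of regions treat the libraries of a mouse as separate, and a fit with the mouse as a block is given beside them. H24 (11 mice, heroin) and S24 (8 mice, saline) were collected after 24 h of withdrawal. The other groups had 8 mice each, went through 30 d of withdrawal, and were given a challenge dose and a drug-seeking test of 2 h. HH mice took heroin and were challenged with heroin, HS mice took heroin and were challenged with saline, SH mice took saline and were challenged with heroin, and SS mice had saline both times. Strain and age were not given in the sources used here. The regions are abbreviated in the labels. BLA is the usual short form of basolateral amygdala, and vHPC that of ventral hippocampus. NAc and dStri are used for the nucleus accumbens and dorsal striatum, PFC for prefrontal cortex, and VTA for the ventral tegmental area of the midbrain.

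The genes fall into 3 kinds of source. Growth hormone (Gh) and prolactin (Prl) are protein hormones made in bulk by somatotroph and lactotroph cells of the anterior pituitary, a gland that lies against the base of the brain, and the transcription factor Pit-1 drives both genes there. Thyrotropin-releasing hormone (Trh), oxytocin (Oxt) and vasopressin (Avp) are peptides of hypothalamic neurons. Trh drives thyrotropin and prolactin release from the pituitary, Oxt acts in birth, lactation and social behaviour, and Avp acts in water balance and social behaviour. Trh and Avp are also made by neurons outside the hypothalamus, Avp among others in the extended amygdala. Melanin-concentrating hormone (Pmch) and hypocretin, also called orexin (Hcrt), are made by separate neurons of the lateral hypothalamus that send axons through much of the brain, including the VTA, and act in feeding, sleep and arousal.

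The genes lie at 6 places in the genome (build GRCm38, GENCODE M21). Gh is at chr11:106300271-106301865 on the minus strand, Prl at chr13:27057570-27065205 on the plus strand, Trh at chr6:92242061-92244650 on the minus strand, Pmch at chr10:88091072-88092375 on the plus strand, and Hcrt at chr11:100761069-100762931 on the minus strand. Oxt, at chr2:130576173-130577054 on the plus strand, and Avp, at chr2:130580620-130582554 on the minus strand, are neighbours that face each other. Both encode a neurophysin, the carrier part of the precursor, and their exons share a long run of identical bases, while no other pair among the 7 genes shared a run of more than 12. The stretches around the shared run are shown because they decide which reads can be told apart. Each covers 187 exonic bases of coding sequence across the junction of exon 1 and exon 2, 5′ to 3′ on the gene's strand, and the capitals mark the 14 bases at which the genes differ. The Oxt stretch joins chr2:130576298-130576329 to chr2:130576591-130576745, and the Avp stretch joins chr2:130582410-130582441 to chr2:130581103-130581257.
Oxt: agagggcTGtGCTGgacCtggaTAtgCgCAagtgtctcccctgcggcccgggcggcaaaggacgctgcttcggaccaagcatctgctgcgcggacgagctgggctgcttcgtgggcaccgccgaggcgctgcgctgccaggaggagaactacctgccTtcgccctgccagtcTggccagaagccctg
Avp: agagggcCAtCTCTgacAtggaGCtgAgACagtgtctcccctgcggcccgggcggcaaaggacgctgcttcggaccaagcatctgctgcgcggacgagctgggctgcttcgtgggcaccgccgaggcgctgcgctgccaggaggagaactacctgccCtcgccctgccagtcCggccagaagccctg
The shared run is shorter than a full read of 150 bases, so only pairs from fragments shorter than a read can lie wholly within it. Such pairs cannot be assigned to 1 of these genes. How far they affect the split between Oxt and Avp at the low counts given below was not tested. Pmch overlaps Parpbp, on the opposite strand, by 435 exonic bases. The libraries keep strand, but the strand setting used in counting is not given in the sources used here. Reads of Pmch and Parpbp may therefore be mixed. Parpbp had median levels of 0.327 to 0.401 CPM in the 6 regions.

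A promoter is shown for Prl, because it was the gene most like Gh across libraries. It covers the 250 bases before the transcript start (RefSeq, GRCm38.p6, chr13:27057320-27057569, plus strand), and the capitals mark matches to a core of the Pit-1 site, TATNCAT, searched on both strands. The match nearer the start begins at position -47.
Prl: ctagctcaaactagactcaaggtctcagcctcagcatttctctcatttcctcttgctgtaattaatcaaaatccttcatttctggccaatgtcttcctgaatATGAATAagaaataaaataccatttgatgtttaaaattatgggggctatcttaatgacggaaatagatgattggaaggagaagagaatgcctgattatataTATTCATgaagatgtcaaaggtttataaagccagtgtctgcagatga
Of 32851 mouse promoters of the same length, counted with 50 bases after the start, 8.84% held this motif, and of the promoters of Trh, Oxt, Avp, Pmch and Hcrt none did. The promoter of Gh was not analysed here. The core element of nuclear receptors, AGGTCA, was in 16.3% of all promoters and in those of Oxt, at -185 and -166, and Trh, at -57. A cAMP response element, TGACGTCA, was in 1.79% of all promoters and in none of these 6. A match is only a string of letters in this window.

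There were 51 libraries of each region in use, or 50 in BLA and VTA, with totals of 19.3 to 61.4 M counts (M, mega) and a median of 31.5 M. No BLA library of S24 mouse 37 was analysed here, and the VTA library of HH mouse 7 was left out for its total under 5 M. At the median depth 3 counts are worth 0.0955 CPM, so values under that level rest on single reads. No read was counted in 35.2% of the libraries for Gh, 58.2% for Prl, 0.987% for Trh, 57.6% for Oxt, 39.1% for Avp, 45.1% for Pmch and 37.8% for Hcrt. Of the libraries used, 12 stood apart from the other libraries of their region in rank correlation: BLA of H24 mice 39, 42 and 51 and SS mouse 6, PFC of S24 mouse 50 and SH mouse 29, VTA of S24 mouse 37, dStri of HH mouse 9, and vHPC of H24 mouse 40, HH mice 18 and 21 and SS mouse 28.

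Gh spanned the widest range of the 7 genes. Its highest level was 517 CPM, in the VTA of S24 mouse 44, while the median VTA library had 0.498 CPM. The next 3 VTA libraries had 298.8 CPM in S24 mouse 41, 290.96 CPM in H24 mouse 43 and 238.01 CPM in H24 mouse 42. These few libraries carried most of the reads: the top 5 of 50 VTA libraries held 84.4% of the summed Gh CPM of that region.

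The same mice were high in other regions. H24 mouse 43 had 48.3 CPM in BLA, 290.96 in VTA and 185.8 in vHPC, beside 6.27 in NAc, 6.90 in PFC and 2.46 in dStri. S24 mouse 44 had 77.7 CPM in BLA, 517 in VTA and 76.9 in vHPC, beside 1.97 in NAc, 5.22 in PFC and 1.35 in dStri. HS mouse 13 had 114.7 CPM in BLA, 28.0 in VTA and 117.4 in vHPC, beside 8.59 in NAc, 0 in PFC and 1.72 in dStri. In each of these mice VTA, vHPC and BLA stood above the other regions.

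Across the 51 mice, 26 had no region over 1 CPM of Gh and 3 had all 6 regions over that level. Those 3 were H24 mice 42 and 43 and S24 mouse 44. Of the 49 mice with any Gh read, the highest region was VTA in 23, vHPC in 14, BLA in 7, PFC in 2, dStri in 2 and NAc in 1. Libraries over 10 CPM occurred in VTA (14), BLA (9) and vHPC (8) and in no library of NAc, PFC or dStri. In bulk tissue, more cells that make a hormone and more of its RNA per cell cannot be told apart.

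**Figure D1:**
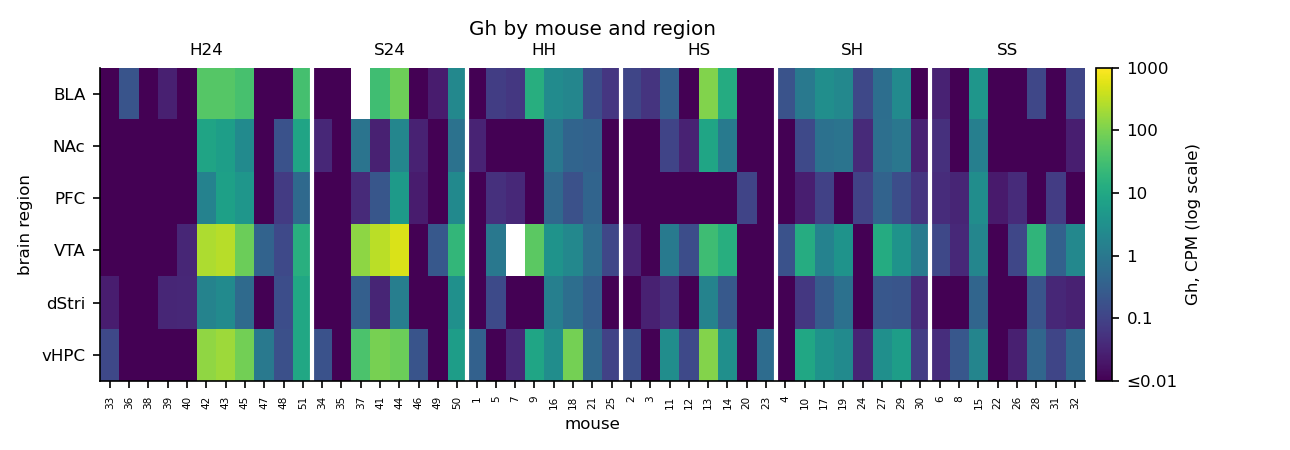
Gh level in CPM (colour, log scale) for each mouse (columns, by group) and brain region (rows), with white for the 2 libraries that were not used. High values line up in columns: H24 mice 42 and 43 and S24 mouse 44 are over 1 CPM in all 6 regions, and 26 mice are in none.

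The agreement of Gh between regions was summarised as the mean, over the 15 pairs of regions, of the Pearson correlation across mice of log2 CPM with the group means subtracted. It was 0.767 for Gh (SD over pairs 0.0991), against 0.0078 for the median of 18576 genes, and Gh stood behind only Btaf1 with 0.846 and Banp with 0.768 among them. The single pairs ran from 0.605 between PFC and VTA to 0.914 between NAc and dStri. These are descriptions, since Gh was picked by this measure and the points of a pair share the mouse and its dissection. In 24 h mice alone the mean was 0.870 and in 30 d mice 0.596. Without the libraries that stood apart it was 0.768.

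Prl lay near Gh in this measure, and the other genes lay near 0. The mean correlation between regions was 0.656 for Prl, 0.068 for Oxt, 0.045 for Avp, 0.012 for Pmch, -0.011 for Trh and -0.031 for Hcrt. Prl was highest in VTA of S24 mouse 44 with 58.6 CPM, where Gh was highest too. In that library 517 CPM of Gh stood beside 58.6 CPM of Prl, and in BLA of HS mouse 13, 114.7 CPM of Gh stood beside 20.9 CPM of Prl.

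The ratio of Gh to Prl counts was taken where both genes had enough reads. In the 34 libraries with at least 50 counts of each gene, there were 2.72 to 8.83 Gh counts per Prl count, with a median of 5.60. The median was 5.74 in 13 VTA libraries, 5.36 in 9 vHPC libraries and 5.81 in 9 BLA libraries, and 1 library each of NAc, PFC and dStri made up the rest. The condition on both counts itself leaves out libraries with Gh and little Prl. BLA of S24 mouse 50 had 78 counts of Gh and 1 of Prl, BLA of HH mouse 18 had 85 and 1, and PFC of S24 mouse 50 had 63 and 0. In VTA of HH mouse 16, Gh was at 3.76 CPM beside 0.231 CPM of Prl. The counts are not divided by exon length, which is 862 bases for Gh and 1408 for Prl.

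**Figure D2:**
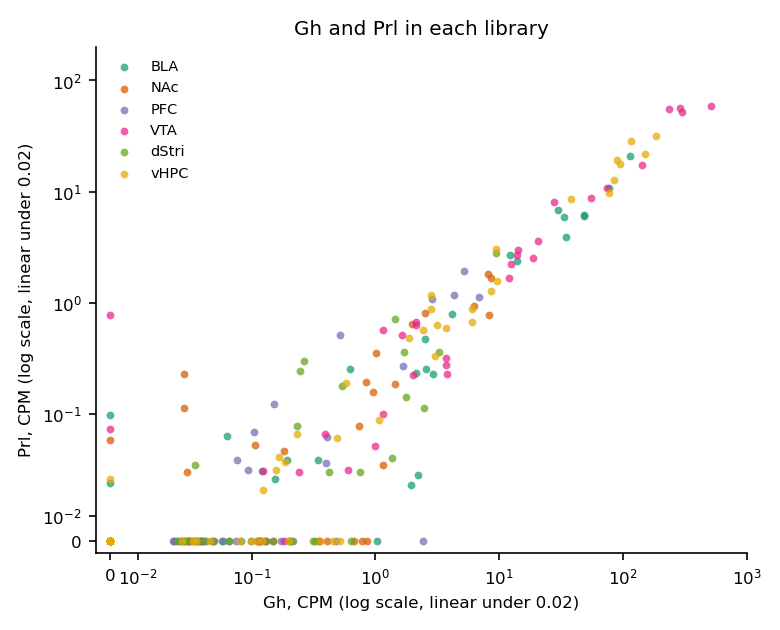
Prl against Gh level in CPM for each library, coloured by region (both axes log, linear under 0.02 CPM). The 34 libraries with at least 50 counts of both genes have 2.72 to 8.83 Gh counts per Prl count, and below them the points spread, with some libraries over 1 CPM of Gh that have 1 or no read of Prl.

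The genes most like Gh across libraries were Prl and Pomc, both hormone genes of the pituitary. In VTA the 5 genes with the highest Spearman correlation to Gh (log2 CPM, group means subtracted), of 13274 candidates over 50 libraries, were Prl (0.917), Pomc (0.766), Btg2 (0.624), Btg3 (0.597) and Gtf2i (0.588). Over mouse means of the 51 mice they were Prl (0.957), Pomc (0.721), Hpcal4 (0.578), Slc18a2 (0.557) and Celf6 (0.557). Prl and Pomc led in BLA with 0.814 and 0.731 and in vHPC with 0.949 and 0.713 as well, in regions added after the data were seen. Pomc encodes the precursor of corticotropin, made by corticotrophs of the pituitary and by neurons of the arcuate nucleus, and Btg2 is an anti-proliferative gene induced by activity. The points share libraries and depth, so these correlations describe and do not test.

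Pomc had a median of 1.80 CPM in VTA. It reached 147.8 CPM in H24 mouse 43, 36.8 in SS mouse 28, 34.9 in H24 mouse 42, 31.5 in S24 mouse 41 and 30.3 in S24 mouse 44. In vHPC it reached 55.6 CPM in H24 mouse 43, against a median of 1.10. The 4 VTA libraries with the highest Gh were thus among the 5 with the highest Pomc, and the other one, SS mouse 28, had 18.9 CPM of Gh.

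Of the 10 anterior pituitary markers, 8 correlated positively with Gh in VTA, 8 in BLA and 9 in vHPC, with median Spearman correlations of 0.39, 0.22 and 0.16. Cga, the alpha subunit shared by the glycoprotein hormones, led the list in each of these regions (0.758 in VTA, 0.734 in BLA and 0.595 in vHPC). The list as a whole was not set apart by its median, since in VTA all 6 markers of dopamine neurons were positive as well, with a median of 0.39, and 5 of 6 excitatory neuron markers, with a median of 0.24. Cga was at 0 in 38 of 50 VTA libraries and had 2.96 CPM in H24 mouse 43, 0.951 in H24 mouse 42, 2.92 in S24 mouse 44 and 2.89 in S24 mouse 41, the 4 libraries with the most Gh. Fshb, the beta subunit of follicle-stimulating hormone, was at 0 in 36 VTA libraries and reached 1.28 CPM in H24 mouse 43, 2.35 in S24 mouse 44 and 1.18 in S24 mouse 41. Cga and Fshb were singled out after seeing their values.

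The list's summed level in VTA was 20.5 and 16.9 CPM in H24 mice 43 and 42 and 26.8 and 13.8 CPM in S24 mice 44 and 41, each with 1 list gene at 0, against a region median of 22.4. Group ranges of the sum were 14.6 to 29.6 CPM in H24 and 8.66 to 35.3 in S24, 13.0 to 43.8 in HH, 8.96 to 31.6 in HS, 9.70 to 41.9 in SH and 11.0 to 44.7 in SS. In BLA the sum was 0.403 to 4.77 CPM and in vHPC 0.603 to 5.89, and Cga, Fshb, Pou1f1, Tbx19, Pitx1 and Gnrhr were at a median of 0 in both. The part of these markers' cells in the Gh and Prl values was not tested.

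**Figure D3:**
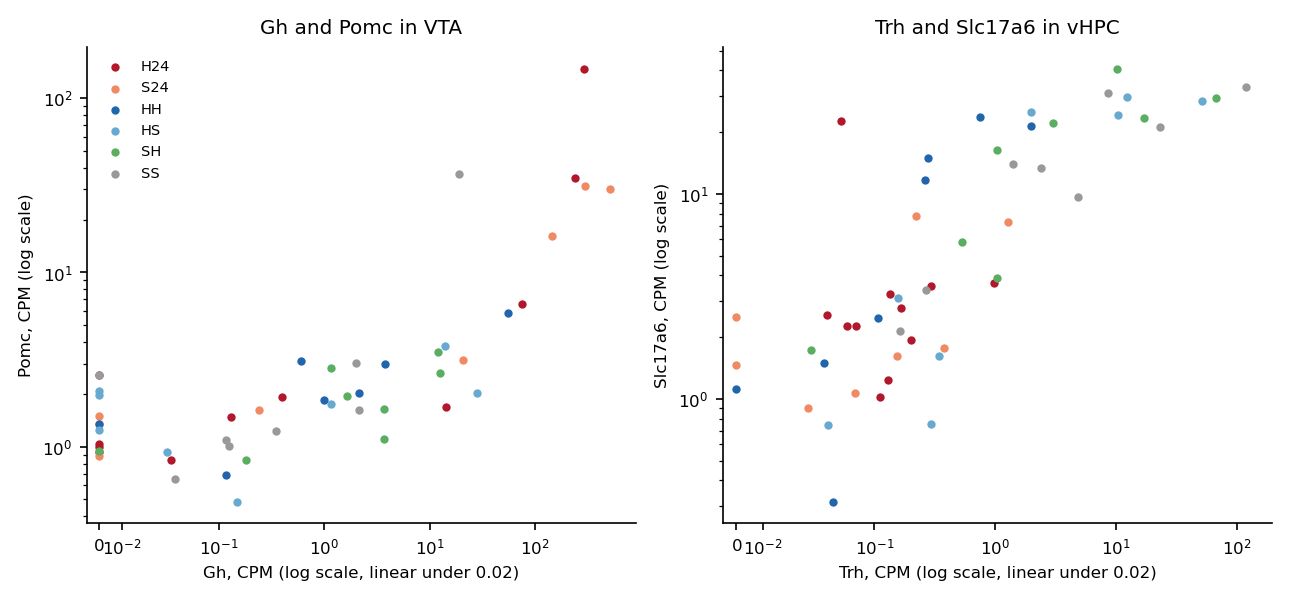
Left, Pomc against Gh in the 50 VTA libraries, and right, Slc17a6 against Trh in the 51 vHPC libraries, in CPM on log axes (the Gh and Trh axes linear under 0.02 CPM), with points coloured by group. Pomc is high where Gh is highest, and every vHPC library over 10 CPM of Trh has more than 20 CPM of Slc17a6.

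Levels differed between regions for each gene, and most genes of the brain did so too: 64.4% of all gene tests over the 15 pairs of regions were called by edgeR's quasi-likelihood test at an adjusted p under 0.05. Called pairs numbered 10 of 15 for Gh, 10 for Prl, 10 for Trh, 6 for Oxt, 7 for Avp, 9 for Pmch and 7 for Hcrt. Together that is 59 calls, a share under that of all genes, so a difference between regions is nothing particular to the hormone genes. For single pairs of regions the share of all genes called ran from 41.4% between NAc and dStri to 76.5% between VTA and dStri, with 63.5% between BLA and NAc. The differences below are fitted log2 values ± standard error with Benjamini-Hochberg adjusted p over 25805 genes, and they rest on group mean counts, so that single high libraries weigh more than they do in a median.

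**Figure D4:**
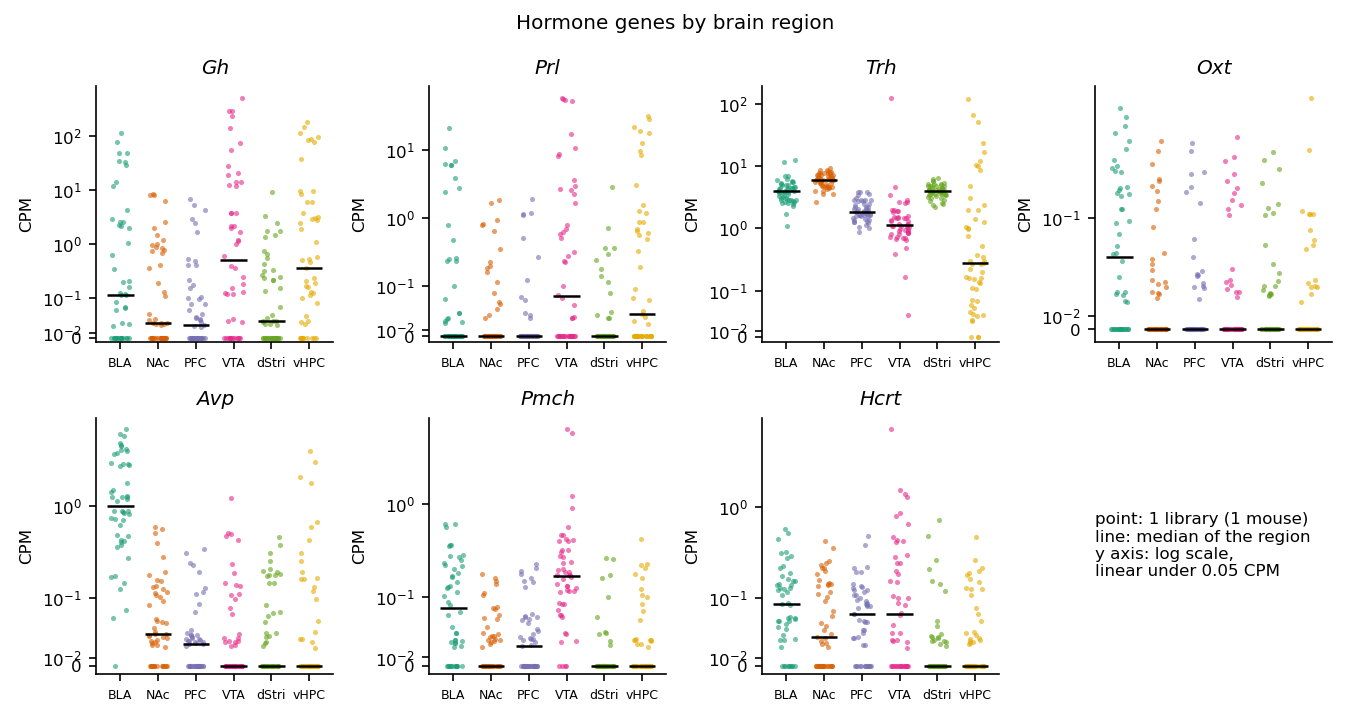
Level of each hormone gene in CPM (log axis, linear under 0.05 CPM) by brain region, with 1 point per library and a line at the region's median. Trh is steady in NAc, dStri, BLA and PFC and spread over more than 2 orders of magnitude in vHPC, and Gh and Prl are spread in VTA, vHPC and BLA.

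Gh had median levels of 0.498 CPM in VTA, 0.360 in vHPC, 0.111 in BLA, 0.0350 in dStri, 0.0302 in NAc and 0.0269 in PFC. VTA and vHPC did not differ beyond their spread (0.62 ± 0.492, adjusted p = 0.259), nor vHPC and BLA (0.87 ± 0.543, adjusted p = 0.185). With the mouse as a block, which pairs the regions of an animal, VTA was higher than vHPC by 0.64 ± 0.273 (adjusted p = 0.0315) and vHPC higher than BLA by 1.05 ± 0.278, also called. BLA lay above dStri by 3.61 ± 0.663 (adjusted p = 3.1e-07), while dStri, NAc and PFC did not differ from their neighbours in this order. The 3 regions with high libraries thus separated from the other 3.

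Prl was at a median of 0.0697 CPM in VTA, with a highest value of 58.6, and of 0.0369 in vHPC, with a highest of 31.9. In BLA, NAc, PFC and dStri the median library had no Prl read, and the highest values were 20.9, 1.81, 1.92 and 2.83 CPM. VTA and vHPC did not differ beyond their spread (0.41 ± 0.435, adjusted p = 0.406). The fitted difference of BLA from vHPC was -1.16 ± 0.574 (adjusted p = 0.0870, edgeR), and with the mouse as a block it was called (-1.07, adjusted p = 0.00084).

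Trh was the most often detected of the genes, with reads in all but 3 libraries. Its medians were 6.03 CPM in NAc (2.66 to 9.46), 4.04 in dStri (2.18 to 6.53), 3.94 in BLA (1.11 to 12.6), 1.85 in PFC (0.866 to 3.797), 1.12 in VTA (0.0391 to 125) and 0.276 in vHPC (0 to 120). Per kilobase of exon the first 3 medians are 4.36, 2.92 and 2.85 CPM. NAc was higher than dStri by 0.51 ± 0.216 (adjusted p = 0.0451), a call that was lost with the mouse as a block (0.56, adjusted p = 0.0663), with RLE scaling, without the filter on low counts, with the low-depth VTA library kept and in saline mice alone. BLA was higher than PFC by 1.08 ± 0.224 (adjusted p = 8.9e-06). Between dStri and BLA the difference was -0.08 ± 0.218 (adjusted p = 0.751), and between VTA and vHPC it was -0.16 ± 0.353 (adjusted p = 0.706), with a sign opposite to the order of the medians, and the highest libraries of both regions are far over their medians. Between PFC and VTA the difference was 0.14 ± 0.218 (adjusted p = 0.565), without the libraries that stood apart it was 0.67 (adjusted p = 0.0029), and in saline mice alone it was -1.37 (adjusted p = 0.0108), so its direction depends on which libraries are used.

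In vHPC 8 libraries had over 10 CPM of Trh and held most of its reads, the top 5 making up 80.7% of the region's summed CPM. These were SS mouse 31 with 120 CPM, SH mouse 17 with 67.6, HS mouse 14 with 50.9, SS mouse 26 with 23.2, SH mouse 30 with 16.9, HS mouse 13 with 12.2, HS mouse 20 with 10.3 and SH mouse 27 with 10.2. None was an H24, S24 or HH library. The mouse with the highest level was not high elsewhere: SS mouse 31 had 5.31 CPM of Trh in BLA, 6.05 in NAc, 1.23 in PFC, 2.63 in VTA and 3.41 in dStri, all within the ranges of those regions.

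The genes most like Trh in vHPC, of 13277 candidates over 51 libraries in a region added after the data were seen, were Ecel1 (Spearman 0.862), Slc8a3 (0.839), Hap1 (0.838), Prkg2 (0.834) and Crb1 (0.827). Slc17a6, the vesicular glutamate transporter of subcortical neurons, correlated at 0.779 and had 33.1 CPM in SS mouse 31, 29.5 in SH mouse 17 and 28.3 in HS mouse 14, against a region median of 3.57. Trhr, the receptor of Trh, correlated at 0.728 and had 92.1 CPM in SS mouse 31 and 110.7 in HS mouse 13, against a median of 17.0. All 6 markers of cortical and hippocampal excitatory neurons correlated negatively with Trh, with a median of -0.53. Slc17a6 and Trhr were singled out after seeing their values.

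Marker lists of other cells are given beside these values. The 4 thalamic markers, which include Slc17a6, summed to 44.8 CPM in SS mouse 31, 43.5 in SH mouse 17 and 44.7 in HS mouse 14, against a region median of 18.4, and none of the 4 was at 0. Most of each sum was Slc17a6, the list's median Spearman correlation with Trh was 0.08, and the lowest was that of Tcf7l2 at -0.04. The 12 meningeal fibroblast markers summed to 349, 399.5 and 325 CPM in the same libraries, against a median of 148.2, but to 95.9 and 157 CPM in SS mouse 26 and SH mouse 30. The thalamic sum ranged over 11.7 to 60.4 CPM in HH, 14.4 to 48.7 in HS, 15.9 to 63.9 in SH and 16.6 to 57.2 in SS, with 13.4 to 37.3 in H24 and 10.0 to 22.7 in S24. Hypothalamic neuron markers summed to 22.2, 16.0 and 16.8 CPM in SS mouse 31, SH mouse 17 and HS mouse 14, under the median of 30.3, most of which was Lhx9. Of these 10 markers 6 correlated positively with Trh, with a list median of 0.14, from Lhx9 at -0.42 to Otp at 0.52. Striatal projection neuron markers were positive in 5 of 6 cases, with a median of 0.32. The part of these markers' cells in the Trh values was not tested.

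The VTA library of S24 mouse 37 had 125 CPM of Trh from 4714 reads, by which Trh was picked. The next highest VTA library, H24 mouse 51, had 4.58 CPM. In the other regions of mouse 37 Trh was at 0.374 CPM in vHPC, 1.38 in PFC, 3.86 in dStri and 4.69 in NAc, within the range of each region. This library stood apart from the others of VTA. Its 6 excitatory neuron markers summed to 937 CPM, against a region median of 57.1, and its 12 meningeal markers to 278.6 CPM, against 69.6, both the highest of 50 libraries, while the hypothalamic markers summed to 7.44 CPM, against 10.1, with 3 of 10 at 0. Otp, a gene of the hypothalamic list, had 3.28 CPM in this library, against a mean of 1.18 CPM over the VTA libraries. Whether these values are connected with the Trh level of this library was not tested. Across all VTA libraries the genes with a level like that of Trh included Otp (Spearman 0.601), a transcription factor of hypothalamic and other peptide neurons, Tph2 (0.570), Slc6a4 (0.550) and Rnpep (0.546). Tph2 and Slc6a4 are genes of serotonin neurons.

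In NAc, where the Trh median was highest, the most similar genes were Fam151b (0.617), Itpripl1 (0.614), Slc35f4 (0.579), Rars (0.565) and C1qb (0.565), which are weaker likenesses than those in vHPC.

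Avp was present in BLA and near 0 elsewhere. The BLA median was 1.02 CPM, with a highest value of 6.95 in SH mouse 19, and 1 of 50 libraries had no Avp read. The other medians were 0.0391 CPM in NAc, 0.0273 in PFC and 0 in VTA, dStri and vHPC. BLA was higher than NAc by 3.78 ± 0.341 (adjusted p = 4.8e-23, edgeR). NAc was higher than PFC by 0.71 ± 0.268 (adjusted p = 0.0153), which was lost with the mouse as a block (0.58, adjusted p = 0.0892).

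Avp had close partners in BLA, among them Frem3 (Spearman 0.826), Irs4 (0.799), Igsf1 (0.799), Gpr165 (0.798) and Gabrq (0.792), of 13267 candidates over 50 libraries. Among the listed peptides Cartpt correlated at 0.779, and among hypothalamic markers Sim1 at 0.715, with 9 of 10 of those markers positive and a list median of 0.15; both genes were singled out after seeing their values. All 12 meningeal markers and all 6 dopamine neuron markers were positive too, each with a median of 0.23. The 6 excitatory neuron markers were all negative, with a median of -0.47. The library with the most Avp, SH mouse 19, had the highest sums of BLA for hypothalamic markers (20.1 CPM, median 1.78), thalamic markers and meningeal markers. The hypothalamic sum ranged over 0.436 to 8.82 CPM in H24 and 0.531 to 1.85 in S24, and over 0.586 to 8.32 in HH, 1.01 to 7.00 in HS, 1.13 to 20.1 in SH and 0.522 to 12.2 in SS, and its part in the Avp values was not tested.

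Outside BLA the highest Avp levels were in vHPC, with 4.05 CPM in HH mouse 21 and 3.05 in HH mouse 18. Both libraries stood apart from the rest of vHPC, with 16016 and 16157 CPM summed over 10 choroid plexus markers against a region median of 73.0. Oxt had its highest level of the series in the library of HH mouse 18, at 0.639 CPM. The link of choroid plexus RNA to these values was not tested.

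Oxt stayed under 0.64 CPM in every library. Its median was 0.0546 CPM in BLA and 0 in the other 5 regions, and it passed edgeR's filter on low counts in no treatment comparison within a region. In BLA its likeness to other genes was moderate, with Clpp first at 0.539, and its correlation with Avp there was 0.339. With so few reads, the level of Oxt itself is known only to be low.

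Pmch and Hcrt were low in all regions, with medians up to 0.168 CPM for Pmch, in VTA, and up to 0.0851 CPM for Hcrt, in BLA. Pmch was higher in VTA than in BLA by 1.00 ± 0.323 (adjusted p = 0.0035, edgeR) and in BLA than in PFC by 1.24 ± 0.284 (adjusted p = 5.9e-05). Hcrt did not differ beyond its spread between BLA and VTA (-0.70 ± 0.370, adjusted p = 0.0840), with a sign against the order of the medians, and the highest single libraries were in VTA.

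Down to HH mouse 16, the highest VTA libraries were the same for both genes, in another order. Pmch reached 6.44 CPM in VTA of SS mouse 28 and 5.89 in SS mouse 22, and the next was HH mouse 16 with 1.22. Hcrt reached 7.06 CPM in SS mouse 22, 1.52 in SS mouse 28 and 1.38 in HH mouse 16. SS mouse 15 came next with 1.28 CPM of Hcrt, but it had 0.0835 CPM of Pmch. The receptor genes were far more abundant in VTA, with medians of 13.8 CPM for Hcrtr1, 10.3 for Hcrtr2 and 11.7 for Mchr1. The excitatory neuron markers summed to 278.7 CPM in SS mouse 28 and 131.6 in SS mouse 22, against a VTA median of 57.1, and the hypothalamic markers to 9.90 and 19.0 CPM, against 10.1. The part of these markers' cells in the Pmch and Hcrt values was not tested.

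The treatment comparisons ask whether heroin intake, the challenge or their combination changed the hormone genes in a region. No hormone gene was called in any of them. Over 36 comparisons, 6 in each region, the hormone genes passed the filter on low counts in 86 tests, and edgeR's quasi-likelihood test called 0 of them, where it called 4 of 699875 tests over all genes (0.000572%). At an unadjusted p under 0.05 there were 19 of the 86, against 4.09% of all gene tests. Of the 19, 1 is Trh in VTA for H24 against S24, which includes the library by which Trh was picked. DESeq2 called 0 of the hormone genes' tests as well and 62 over all genes, and its smallest adjusted p for a hormone gene was 0.0740, for HH against SS. In the 30 d mice the tests cover Trh in all 6 regions, Gh in BLA, NAc, VTA and vHPC, Prl in VTA and vHPC, Avp in BLA, and Pmch and Hcrt in VTA. In the 24 h mice they cover Trh in the 5 regions other than vHPC, Gh in BLA, VTA and vHPC, Prl in VTA and vHPC, and Avp in BLA.

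Heroin intake at 24 h of withdrawal (H24 against S24) left 0 of 11 tests called (0% of all genes in these 6 comparisons), with 2 at an unadjusted p under 0.05. In NAc, Trh had a lowest, median and highest level of 4.66, 7.32 and 8.68 CPM in H24 mice, against 4.67, 5.38 and 7.87 in S24 mice. The groups overlapped over nearly their whole range, and the difference was 0.28 ± 0.130 with adjusted p = 0.629. In VTA, Trh ran over 0.167, 1.06 and 4.58 CPM in H24 mice and 0.857, 1.68 and 125 in S24 mice, and the fitted value was -3.61. This value includes the library of S24 mouse 37 by which Trh was picked, so it is a description and not a test, although it is 1 of the 2. Without that library the fitted value was -0.36, with an unadjusted p of 0.383 (edgeR).

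For Gh the 24 h groups overlapped throughout. VTA values were 0, 0.130 and 290.96 CPM in H24 mice and 0, 10.5 and 517 in S24 mice, and vHPC values were 0, 0.165 and 185.8 CPM in H24 mice and 0, 3.09 and 95.6 in S24 mice. In both groups there were mice with no Gh read and mice with over 90 CPM.

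The heroin challenge after saline intake (SH against SS) left 0 of 15 tests called, where 0.0034% of all gene tests were (0.00506% in NAc, 0.015% in PFC and 0% in the other regions), with 2 at an unadjusted p under 0.05. These were Pmch in VTA, with 0.0716, 0.169 and 0.919 CPM in SH mice and 0, 0.127 and 6.44 in SS mice, and Hcrt in VTA, with 0, 0.0206 and 0.430 CPM in SH mice and 0, 0.234 and 7.06 in SS mice. The fitted differences were -2.41 ± 0.884 for Pmch and -3.32 ± 1.04 for Hcrt, and SS mice 22 and 28 held the highest values of both. For Pmch the other SS mice lay within or under the range of the SH mice, and for Hcrt 4 SS mice were above every SH mouse and 4 were at 0. Avp in BLA was highest in SH mice, with 0.355, 4.08 and 6.95 CPM, against 0.0597, 1.64 and 4.91 in SS mice, and these ranges overlapped without a call.

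Heroin intake with saline as the challenge (HS against SS) left 0 of 15 tests called (0% of all genes), with 6 at an unadjusted p under 0.05. In BLA, Gh had 0, 0.0850 and 114.7 CPM in HS mice, against 0, 0.0153 and 4.19 in SS mice, a fitted difference of 4.81 ± 1.49 (adjusted p = 1.00, edgeR), and the highest value was that of HS mouse 13. In vHPC, Gh had 0, 0.366 and 117.4 CPM in HS mice, against 0, 0.172 and 1.88 in SS mice (5.19 ± 1.64, adjusted p = 0.979), and Prl had 0, 0.111 and 28.5 CPM in HS mice, against 0, 0 and 0.486 in SS mice (5.31 ± 1.62). In NAc, Gh reached 8.59 CPM in HS mice and 1.45 in SS mice, with medians of 0.0151 and 0 CPM (2.36 ± 1.14). The fitted values of Pmch and Hcrt in VTA were -3.02 ± 0.910 and -3.04 ± 1.03. In each case the groups overlapped.

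The heroin challenge after heroin intake (HH against SS) left 0 of 15 tests called (0% of all genes), with 4 at an unadjusted p under 0.05. It held the smallest adjusted p of the hormone genes, 0.515 by edgeR and 0.0740 by DESeq2. Trh in vHPC had 0, 0.185 and 1.99 CPM in HH mice, against 0.161, 3.60 and 120 in SS mice, a fitted difference of -5.49 ± 1.48 (unadjusted p = 0.00077, adjusted p = 0.515, edgeR). No HH mouse was over 2 CPM, and 6 of the 8 SS mice were over 1. Gh in vHPC had 0, 0.425 and 90.1 CPM in HH mice, against 0, 0.172 and 1.88 in SS mice (4.88 ± 1.62, adjusted p = 0.515), with the highest value in HH mouse 18, whose library stood apart, and without such libraries the difference was 2.38. Prl in vHPC had a fitted difference of 4.78 ± 1.59, and of 1.97 without those libraries, with a highest value of 19.2 CPM in HH mice and 0.486 in SS mice. Pmch in VTA had 0.0289, 0.171 and 1.22 CPM in HH mice, against 0, 0.127 and 6.44 in SS mice (-2.15 ± 0.916).

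History under a heroin challenge (HH against SH) left 0 of 15 tests called (0% of all genes), with 1 at an unadjusted p under 0.05. It was Trh in vHPC, with 0, 0.185 and 1.99 CPM in HH mice, against 0.0299, 2.03 and 67.6 in SH mice (-4.75 ± 1.44, adjusted p = 0.651, edgeR). HS mice, with 0.0415, 1.16 and 50.9 CPM, lay between HH and SS mice by their median. The interaction of history and challenge left 0 of 15 tests called (0% of all genes), with 4 at an unadjusted p under 0.05: Trh in vHPC (-3.67 ± 1.79) and PFC (-0.66 ± 0.321) and Pmch (3.29 ± 1.27) and Hcrt (4.61 ± 1.45) in VTA. The comparisons with SS share their SS mice, so values that recur among them are not separate evidence.

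**Figure D5:**
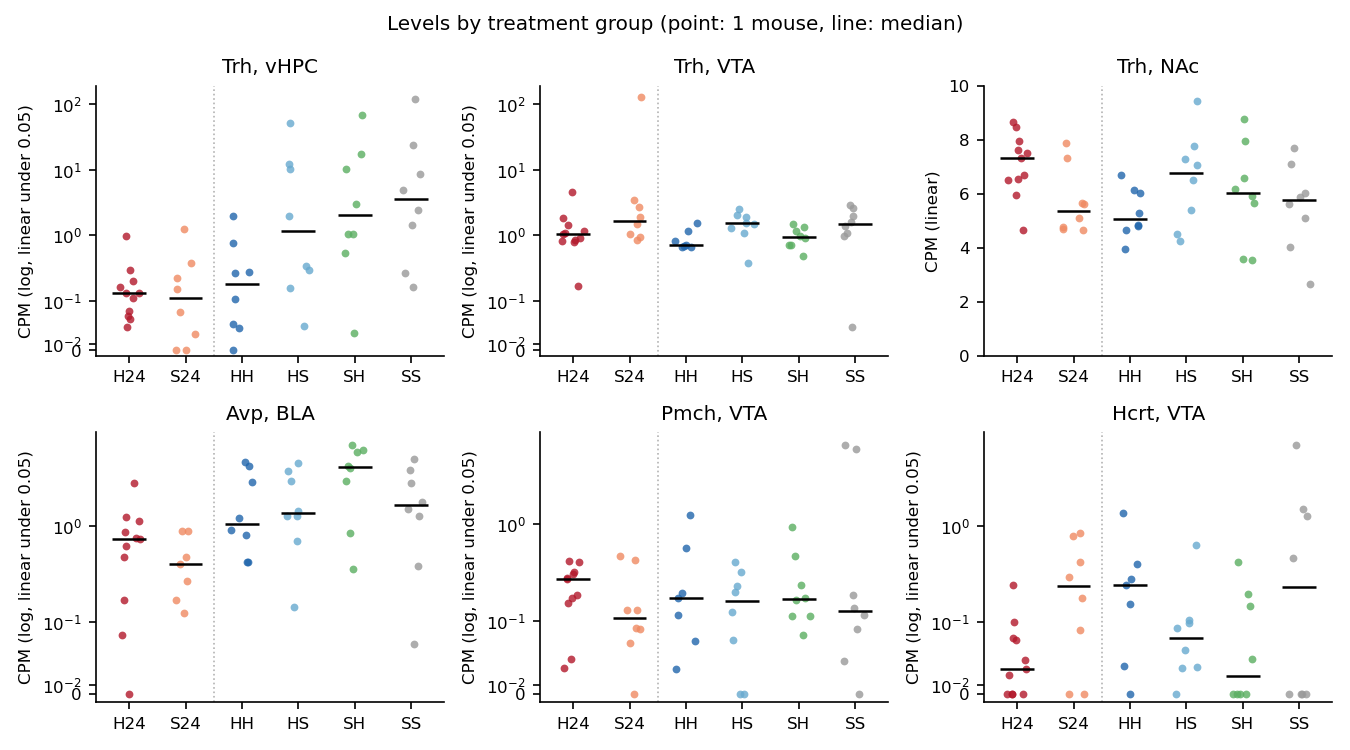
Trh in vHPC, VTA and NAc, Avp in BLA, and Pmch and Hcrt in VTA by treatment group, in CPM (log axes, linear under 0.05 CPM, except the linear axis of Trh in NAc), with 1 point per mouse and a line at the median. The dotted line parts the 24 h from the 30 d groups. No HH mouse is over 2 CPM of Trh in vHPC, while 3 HS, 3 SH and 2 SS mice are over 10 CPM.

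The 30 d mice fall into 2 sets by the prefix in the code of their BLA library, whose meaning the labels do not give, with 6, 6, 4 and 3 mice of HH, HS, SH and SS in the first and 2, 2, 4 and 5 in the second, so history is partly bound up with the set. Within sets, as differences of mean log2 CPM, Trh in vHPC for HH against SS was -1.57 in set 1 and -5.23 in set 2, and for HH against SH it was -2.8 and -4.0. Gh in vHPC for HH against SS was 1.66 in set 1 and 0.82 in set 2, and for HS against SS it was 1.52 and -0.13. Gh in BLA for HS against SS was 1.94 in set 1 and -0.93 in set 2, and in NAc 0.42 and -0.18. Prl in vHPC gave 1.34 and 0.78 for HH against SS and 1.49 and 1.40 for HS against SS. Pmch in VTA for HH against SS was 1.26 in set 1 and -2.04 in set 2, for HS against SS -0.26 and -0.54, and for SH against SS 0.59 and -0.68. Hcrt in VTA was -0.44 and -0.56 for HS against SS and -1.08 and -1.59 for SH against SS. These values of Trh and Hcrt had the same sign in both sets, as did Prl and Gh in vHPC for HH against SS, while the remaining values of Gh and those of Pmch, other than HS against SS, changed sign.

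Averaged over the regions of a mouse, 35 comparisons were made, 7 genes by 5 contrasts. Of these, limma tested all but those of Oxt and called 0 (0% of 23298 genes in each contrast). Trh had its lowest median in HH mice among the 30 d groups, where its region-centred log2 level was -0.94, -0.46 and 0.11 (lowest, median and highest) in HH mice, against -0.04, 0.27 and 1.40 in SS mice. The difference was -0.85 ± 0.246 (two-sided exact permutation p = 0.00202, limma adjusted p = 0.916), and the groups overlapped. Against SH mice the difference was -0.80 ± 0.246 (exact permutation p = 0.00699, limma adjusted p = 0.971). By region, the fitted Trh difference of HH from SS mice was -5.49 in vHPC, -0.79 in VTA and -0.55 in BLA. In PFC, dStri and NAc it was -0.10, -0.06 and -0.05. The mouse means include vHPC, so these Trh values are not separate evidence from the vHPC comparisons. Hcrt was -0.54 ± 0.236 in H24 against S24 mice (exact permutation p = 0.0452, limma adjusted p = 0.797). Oxt was under limma's filter and had a mean difference of 0.58 for HS against SS (exact permutation p = 0.0267). The Gh difference for SH against SS was 1.58 (exact permutation p = 0.111). None of these passed limma's adjustment over all genes, which did not cover the Oxt value. On counts summed over the regions of a mouse, edgeR gave other sizes: -1.42 for Trh in HH against SS mice (adjusted p = 0.975), -0.93 for Hcrt in H24 against S24 mice (adjusted p = 0.580) and 0.90 for Gh in SH against SS mice (adjusted p = 1.00). Hcrt in SH against SS mice was -1.44 by the summed counts (adjusted p = 1.00) and -0.16 by the mouse means. In HS against SS mice, in the same order, Hcrt was -1.72 and -0.30 and Prl was 3.48 and 0.91. Some signs changed as well. Pmch was -1.67 and 0.18 for SH against SS and -1.54 and 0.31 for HS against SS. Hcrt was -0.84 and 0.20 for HH against SS, and Gh was 1.29 and -0.48 for HH against SH.

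The genes around the hormones did not pass the test either. Among the 11 receptors of the 7 hormones, edgeR called 0 of 307 tests in the same comparisons, with 9 at an unadjusted p under 0.05. The smallest p was that of Prlr, the prolactin receptor, in BLA for H24 against S24 (2.78 ± 0.817, adjusted p = 0.641). Of the tests of releasing factors and other hypothalamic peptides 0 were called, with 18 at an unadjusted p under 0.05 and Ghrh, the releasing hormone of Gh, in BLA first (interaction 2.52 ± 0.631, adjusted p = 1.00). Kiss1, 1 of the 12 genes of that list, was not analysed here.

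Among genes of Gh regulation and action 0 of 342 tests were called, with 23 at an unadjusted p under 0.05. Igf1, the growth factor through which Gh acts on many tissues, came first in PFC for HH against SS (0.32 ± 0.102, adjusted p = 0.849). Of the tests of prohormone processing genes 0 were called, with 6 at an unadjusted p under 0.05, and Pcsk1, a convertase that cuts peptide precursors, came first in dStri for SH against SS (0.47 ± 0.142, adjusted p = 0.503). Across all genes 4.09% of tests had an unadjusted p under 0.05, and these lists lay at 2.93%, 6.84%, 6.73% and 2.78%. The 8 lists of cell type markers had no call either, but most lay above the share of all genes, with 20.4% of tests at an unadjusted p under 0.05 for choroid plexus, 18.1% for excitatory neurons, 14.3% for meningeal fibroblasts and 12.1% for the anterior pituitary. The shares were 11.1% for thalamic, 8.73% for dopamine, 5.09% for striatal and 4.11% for hypothalamic neurons. The smallest p among them was that of Dcn, a meningeal marker, in PFC for SH against SS (-0.93 ± 0.210, adjusted p = 0.148).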

How the data were processed

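RNA from 6 brain regions of each mouse was sequenced from strand-specific, rRNA-depleted libraries (2 ends of 150 bases), per the labels' protocols. The authors deposited raw counts per Ensembl gene and library. FastQC, HISAT2, SAMtools and HTSeq with build mm10 are named in the submitters' processing notes, and versions, settings and annotation are not given in the sources used here. The count table was the 1 file used of 8 deposited, and no value column lacked a sample. Identifiers were matched to GENCODE M21 (GRCm38, the same build as mm10), which gave a symbol to 52489 of 52636. From the counts, CPM were computed over each library's total, which is the depth behind every value.

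Treatment groups were compared within each region by edgeR's quasi-likelihood test (edgeR 4.0.16, TMM scaling, genes kept by filterByExpr with a minimum count of 10), with the 24 h and the 30 d mice fitted apart and p-values adjusted over all genes of a comparison by Benjamini-Hochberg at 0.05. Mouse means over regions (log2 CPM with prior count 1, the mean of each region subtracted) were compared by limma 3.58.1 and, for each hormone gene, by an exact permutation test. Regions were compared over all libraries, without a term for the mouse in the main fit. DESeq2 1.42.0 and R 4.3.3 were used for alternatives, which were RLE scaling, no filter, the library under 5 M counts kept, libraries that stand apart (over 4 scaled median absolute deviations below the region's median rank correlation) left out, saline mice only, the mouse set (the prefix of the BLA library's code) as a covariate, other prior counts and the mouse as replicate block. The scripts were tested on simulated data. Regions of a mouse are paired because the labels give them the same mouse, so the block uses the animal itself. P-values measure the spread between mice, and those of the main region comparisons leave out the pairing of regions within a mouse.

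The hormone genes and the gene lists were chosen with earlier results of these data known. The genes named beyond them are, for each list, the gene with the smallest p, and for each hormone gene the 5 most similar genes in the region of its highest median, where genes under a mean of 1 CPM were left out. Sequences are from GENCODE and RefSeq. The authors' other tables were not used here. A few values of single genes are not reported here.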

Additional observations from a re-analysis of the deposited data

Results flagged for a closer look

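In 8 of 71 groups that could be tested, the highest or lowest library lay far outside the rest by Dixon's test. That test flags about 1 group in 20 by chance when values are normal, and many of these groups hold values at 0, so the rate does not apply to them. The 8 groups include the VTA value by which Trh was picked. They also include values of Gh and Prl in the same mouse, which are not separate. In SS mouse 15, Gh had 4.19 CPM in BLA, where the other SS mice had 0 to 0.117, and 1.45 CPM in NAc, where they had 0 to 0.0493. Prl in vHPC of the same mouse was 0.486 CPM, where the others had 0 to 0.0664. Trh in BLA of SH mouse 19 was 11.6 CPM, where the others had 3.07 to 5.50, and this is also the library with the most Avp in BLA. Trh in PFC of SS mouse 6 was 3.79 CPM, where the others had 1.23 to 1.88.

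Trh in VTA of S24 mouse 37 was 124.8 CPM, where the other S24 mice had 0.857 to 3.42. Trh was picked by this value, which is therefore a description and not an outcome of the test. Trh in VTA was low in HS mouse 2 with 0.384 CPM, where the others had 1.08 to 2.52, and in SS mouse 26 with 0.0391 CPM, where the others had 0.975 to 2.90. SS mouse 26 had 23.2 CPM of Trh in vHPC.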

How the results depend on the processing

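Under every alternative run, no treatment comparison of a hormone gene in a region was called. The differences at an unadjusted p under 0.05 kept their sign under DESeq2, RLE scaling and no filter (19 values each), with the mouse set as a covariate (17), without the libraries that stand apart (10), with the low-depth library kept (3) and without S24 mouse 37 (1), but sizes moved: Gh in vHPC for HH against SS was 2.08 and for HS against SS 1.24 by DESeq2, which also gave -0.33 for Trh in VTA for H24 against S24, and Pmch in VTA for HH against SS was -0.94 with the mouse set as a covariate.

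Over the region pairs, 59 were called for the 7 genes and 62 with the replicate block (mouse), which pairs the regions of an animal. The block added Gh between VTA and vHPC (0.64) and vHPC and BLA (1.05), Prl between BLA and vHPC (-1.07) and Avp between VTA and vHPC (-0.72, adjusted p = 0.0494), ended Trh between NAc and dStri (0.56) and Avp between NAc and PFC (0.58, adjusted p = 0.0892), turned Hcrt between PFC and NAc to -0.025, and changed no other call between regions that are neighbours in a gene's order of medians. Saline mice alone, which are fewer, gave 31 calls and turned Gh between NAc and PFC to -0.75, Trh between PFC and VTA to -1.37 (adjusted p = 0.0108) and Trh between VTA and vHPC to 1.02, and the cause was not tested. The agreement of Gh between regions was 0.870 in 24 h mice, 0.596 in 30 d mice, 0.654 in set 1 and 0.581 in set 2, subsets chosen after seeing the data, as was leaving out libraries that stand apart for the regions and the agreement. It was 0.749 as Spearman correlation, 0.759 without subtracting group means and 0.738 with a prior count of 0.25.

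Depth limits Oxt, Prl, Avp, Pmch and Hcrt, whose medians lie under 0.0955 CPM, the worth of 3 counts at the median depth, in at least 5 of the 6 regions, and Gh, where they do so in NAc, PFC and dStri.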
